A study of Rattus norvegicus with 2 samples.

Results

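The translation initiation and elongation factor genes were taken as all genes whose symbol starts with Eif or Eef followed by a digit, which gave 62 of the 25399 genes listed for each library, 50 initiation factor genes and 12 elongation factor genes. Stellate ganglia, the sympathetic ganglia that hold the neurons innervating the heart, were dissociated with collagenase IV and trypsin, and their cells were sequenced in droplets with 10x Genomics chemistry. The first group was 1 library from normotensive Wistar rats, and the second was 1 library from prehypertensive SHR (spontaneously hypertensive rat) animals. Both groups were untreated male rats of 5 to 6 weeks of age, and how many animals went into a library is not given in the sources used here. SHR is an inbred strain with a genetic predisposition to hypertension and Wistar is an outbred stock, so a strain difference and a difference between 2 preparations cannot be told apart. With 1 library per strain, no difference between the strains has a replicate check, and the data allow neither a test nor an error.

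Protein synthesis starts when the eIF2 trimer brings the initiator tRNA to the small ribosomal subunit, eIF3 holds the assembly together, and the eIF4 proteins recruit the capped messenger RNA and unwind it. eIF1 and eIF1A watch over the choice of start codon, eIF5 and eIF5B release the other factors and join the large subunit, and the eEF1 and eEF2 proteins then deliver aminoacyl-tRNAs and move the ribosome along. Neurons regulate 2 of these steps closely, the recycling of eIF2 by eIF2B, which eIF2 alpha kinases block under stress, and the movement step of eEF2, which its calcium-dependent kinase blocks.

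The authors deposited 1 value per gene and library for the sympathetic neuron cluster, namely ln(1 + m), where m is the average number of counts of that gene in 10000 counts of a cell. Levels are given below as that mean per 10000, and differences as the difference of log2(1 + mean per 10000), SHR minus Wistar, which understates the change of genes with low means. The number of neurons and the depth per neuron are unknown, so no counting error can be set beside a mean. In these bulk means, fewer cells expressing a gene and less RNA per cell cannot be told apart. Of all genes, 16004 had a nonzero mean in the Wistar library and 14647 in SHR, as did 61 of the 62 factor genes in each. The chemistry counts each molecule once from its transcript end, so levels were compared between genes without division by length.

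The cluster held its expected markers, since all 12 sympathetic neuron markers were above 0 in both libraries, with a summed level of 130.0 per 10000 in the Wistar library and 131.9 in SHR. Prph, the gene of the filament protein peripherin, made up much of that sum (58.0 and 67.6). Of the 12 markers 8 were lower in SHR, close to the 65.6% of all genes averaging at least 0.1 per 10000 that were lower. Among the 8 were 3 catecholamine genes, namely Dbh (10.2 and 6.36 per 10000), Ddc (7.05 and 3.44) and Slc18a2 (5.36 and 3.63). Of the 4 higher markers, the transcription factor gene Phox2a was at 6.03 and 7.82. Most markers of glia, fibroblasts and immune cells were lower in the SHR library too. All 10 satellite glia and Schwann cell markers were lower there, with a sum of 20.7 per 10000 in the Wistar library and 12.0 in SHR, mostly from Pmp22 (11.3 and 8.58) and Apoe (6.24 and 2.23). All 6 fibroblast markers were lower, with sums of 1.84 and 0.353. Of 8 immune cell markers 6 were lower, with sums of 0.443 and 0.0949, and Cd3e was listed at 0 in both. An average of 0.1 per 10000 was reached by 7 of the glia markers, 3 of the fibroblast markers and 0 of the immune markers. The sums of the endothelial, smooth muscle and erythrocyte lists were at most 0.117 per 10000, with single genes in both directions (Emcn, Acta2, Tagln and Hba-a2 were higher in SHR), with Alas2 at 0 in both libraries and Rgs5 at 0 in SHR. These shifts run alongside every difference given below, and their part in it was not tested.

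Together the factor genes made up 0.784% of the summed means in Wistar and 0.868% in SHR. The summed level of the 50 initiation factor genes was 61.0 per 10000 in the Wistar library and 67.1 in SHR, higher by 9.95%, and that of the 12 elongation factor genes was 17.4 and 19.7, higher by 13.4%. The most abundant members were Eif1 at 6.93 per 10000 in the Wistar library and 9.02 in SHR, Eef2 at 5.46 and 5.78, Eif4g2 at 5.02 and 5.77, Eif5a at 4.73 and 6.38, and Eif1b at 4.34 and 6.72. Eif1, the highest of them, ranked 143 among all genes in Wistar and 118 in SHR.

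Of the 62 genes, 57 reached an average of 0.1 per 10000 across the libraries. The 5 below this minimum were Eif2d, Eif4ebp1, Eif4ebp2, Eef2kmt and Eef1akmt3, the last of which was listed at 0 in both libraries. Of the 57 genes, 29 were higher and 28 lower in SHR, and 2 other scalings were set beside these counts. On a trimmed total, free of mitochondrial and ribosomal protein genes, the counts were 31 and 26, and after centring, which sets the median of all genes to 0, they were 35 and 22. Across all 7621 genes past the minimum 34.4% were higher and 65.6% were lower, with a median difference of -0.05, whereas the median of the factor genes was 0.0071. By a size rule of at least 0.25 on the log2 scale, 7 of the 57 genes (12.3%) were higher in SHR, against 6.53% of all genes. The same rule in the other direction took 4 of the 57 genes (7.02%), against 11.8% of all genes. At a size of 0.5, 1 gene, Eif1b, passed upward, against 1.23% of all genes, and 0 downward, against 2.15%. The values nearest the rule of 0.25 were 0.255 for Eif3k and -0.255 for Eif3c just inside it, and 0.248 for Eif5a2 and 0.247 for Eef1a2 just outside it.

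The size rule is passed more easily by abundant genes, because of the added 1. Among the 24 factor genes with an average of at least 1 per 10000, 6 passed upward (25.0%), against 25.7% of all genes above that level. Downward 2 of the 24 passed (8.33%), against 19.0%. The upward share of the abundant factor genes was thus close to that of other abundant genes. Their median difference was 0.14, against 0.038 for all genes above that level. At averages of at least 3 per 10000, 4 of 9 factor genes passed upward (44.4%), against 45.7% of all genes there. The median differences were 0.25 for these 9 and 0.21 for all genes there. These 9 included Eif1, Eif1b, Eef1a2, Eef1g and Eef2.

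**Figure D1:**
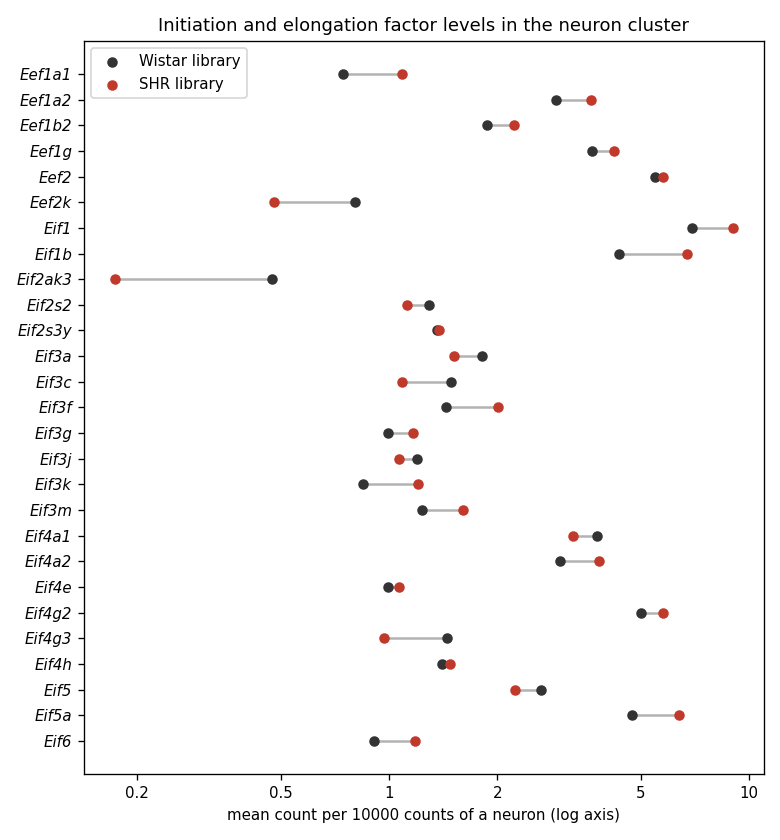
Mean count per 10000 counts of a neuron on a log axis for the 27 factor genes with an average of at least 1 per 10000 or past the size rule, with 1 black point for the Wistar library and 1 red point for the SHR library. Eif1b, Eif1 and Eif5a sit higher in SHR, and Eif2ak3, Eef2k and Eif4g3 sit lower in SHR.

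Most factors of start codon selection and subunit joining were higher in SHR. Eif1b, a close relative of the scanning factor eIF1, averaged 4.34 per 10000 in the Wistar library and 6.72 in SHR, a log2 difference of 0.53 and the largest of all 57 genes. Eif1 itself went from 6.93 to 9.02 per 10000 with a log2 difference of 0.34. Of the 8 genes of this group, 7 were higher in SHR, against 34.4% of all genes as deposited. The count was also 7 under both other scalings, and the summed level went from 16.4 to 21.0 per 10000. The 34.4% covers genes of every level, and all genes averaging at least 3 per 10000 had a median difference of 0.21. The median of this group was 0.097. Eif6, which keeps free large subunits from joining too early, was at 0.909 per 10000 in the Wistar library and 1.18 in SHR (log2 difference 0.19). Eif5, the GTPase-activating protein for eIF2, was the exception, at 2.65 per 10000 in the Wistar library and 2.24 in SHR, a log2 difference of -0.17. Eif1a, Eif1ax, Eif1ad and Eif5b were all below 1 per 10000 in both libraries, with differences from 0.021 to 0.11. Eif1ad was counted in this group by its symbol, and no part in start codon choice is claimed for it.

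The eIF5A proteins, which carry the modified residue hypusine and help ribosomes through difficult peptide bonds, were both higher in SHR. Eif5a was at 4.73 per 10000 in the Wistar library and 6.38 in SHR, a log2 difference of 0.37. Eif5a2 went from 0.528 to 0.814, a log2 difference of 0.25 that fell just short of the size rule. The enzymes that make hypusine differed less, with Dhps at 0.495 per 10000 in the Wistar library and 0.568 in SHR and Dohh at 0.474 and 0.499.

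The Eif2 family went the other way. Of its 14 genes past the minimum 13 were lower in SHR, against 65.6% of all genes, and the count was 13 on the trimmed total and 10 after centring. Most of these genes averaged below 1 per 10000, and their median difference was -0.078. Over all genes the median was -0.070 at averages of 0.3 to 1 per 10000 and -0.055 at 0.1 to 0.3, so the family lay near genes of its level. The summed level of all 15 Eif2 genes was 8.29 per 10000 in the Wistar library and 6.93 in SHR, a change of -16.4%. Downward, 1 of the 14 passed the size rule, against 11.8% of all genes, so passing it was no more frequent in this family than in the background.

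That gene was Eif2ak3, which encodes PERK, the eIF2 alpha kinase of the endoplasmic reticulum. It averaged 0.473 per 10000 in the Wistar library and 0.173 in SHR, a change of -63.4% and a log2 difference of -0.33. The other kinases were also lower in SHR. Eif2ak2, which encodes the double-stranded RNA kinase PKR, was at 0.394 per 10000 in the Wistar library and 0.246 in SHR, and Eif2ak1, which encodes the heme-regulated kinase, at 0.394 and 0.266. Eif2ak4, which encodes the amino acid sensor GCN2, was at 0.329 and 0.253. The 4 kinases summed to 1.59 per 10000 in the Wistar library and 0.939 in SHR, a change of -40.9%, and all 4 were also lower under both other scalings. The span of each of the 4 genes on the genome ranked above the median of all genes past the minimum. Among all genes above that median span, 79.9% were lower in SHR.

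The summed level of the eIF2 subunit genes differed by -8.85% and that of the eIF2B subunit genes by -13.0%, less than that of the kinases. The eIF2 alpha subunit gene Eif2s1 was at 0.760 per 10000 in the Wistar library and 0.638 in SHR (log2 difference -0.10), and the beta subunit gene Eif2s2 at 1.29 and 1.12 (log2 difference -0.11). The gamma subunit has an X-linked gene, Eif2s3, at 0.709 and 0.626 per 10000, and a Y-linked gene, Eif2s3y, at 1.36 and 1.37. Eif2s3y was thus the more abundant gamma subunit gene in both libraries, although reads of so closely related genes can be split between them, which leaves both levels uncertain. The 5 eIF2B subunit genes, which encode the exchange factor that recharges eIF2 with GTP, were between 0.235 and 0.547 per 10000, and their differences lay between -0.081 and -0.024. All 5 were lower in SHR as deposited, against 65.6% of all genes, and 2 of them, Eif2b2 and Eif2b4, were higher after centring. Eif2a, whose product can deliver initiator tRNA in place of eIF2, was at 0.383 and 0.342 per 10000.

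Genes that act downstream of eIF2 phosphorylation, or whose products help to reverse it, were taken as a list of the integrated stress response. Of its 10 measured genes 6 passed the minimum, 3 higher and 3 lower in SHR, and none passed the size rule, against 6.53% of all genes upward and 11.8% downward. Atf4, the transcription factor at the head of this response, was at 2.45 per 10000 in the Wistar library and 2.62 in SHR. Ddit3, its target CHOP, was at 0.946 and 1.24, and the phosphatase subunit gene Ppp1r15a at 0.728 and 0.752. The 3 lower genes were the related subunit gene Ppp1r15b, at 0.338 and 0.253, the asparagine synthetase gene Asns, at 0.187 and 0.112, and the asparaginyl-tRNA synthetase gene Nars, at 1.85 and 1.62.

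**Figure D2:**
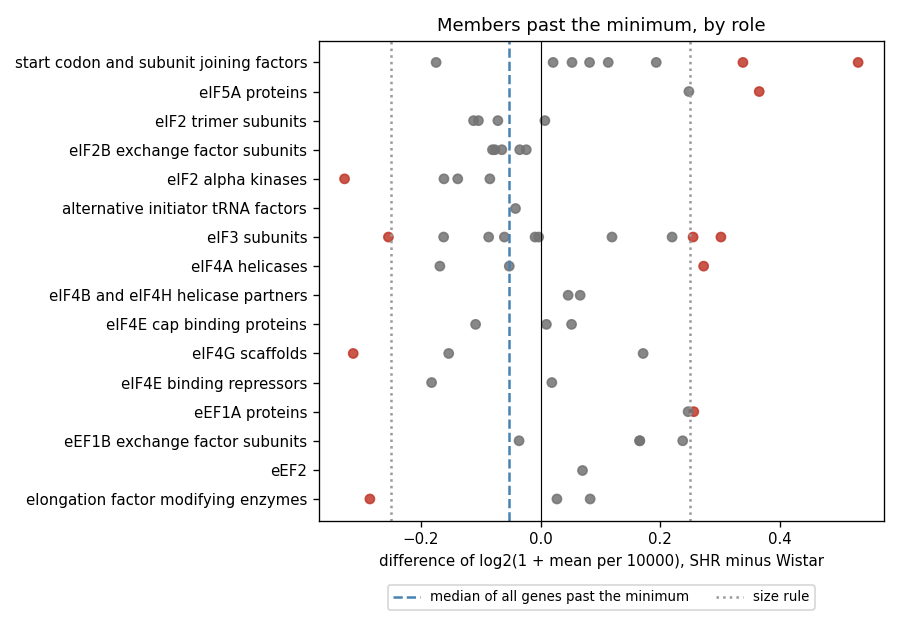
Difference of log2(1 + mean per 10000), SHR minus Wistar, for the 57 factor genes past the minimum, 1 point per gene, with red points past the size rule of 0.25 (dotted lines) and the median of all genes at -0.05 (dashed line). The start codon factors lie mostly to the right and the eIF2 alpha kinases all to the left.

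Of 15 eIF3 subunit symbols looked up, 10 were found, and the core subunit genes Eif3e, Eif3h and Eif3i were not. The 10 were split, with 4 higher and 6 lower in SHR, against 34.4% and 65.6% of all genes as deposited. Their summed level, which is not that of the whole complex, was 11.6 per 10000 in the Wistar library and 12.2 in SHR. Eif3f, which encodes an MPN-domain subunit, was at 1.44 per 10000 in the Wistar library and 2.01 in SHR, a log2 difference of 0.30. Eif3k was at 0.846 and 1.20 (log2 difference 0.25), and Eif3m at 1.24 and 1.61 (log2 difference 0.22). The large core subunits were on the other side. Eif3c was at 1.49 per 10000 in the Wistar library and 1.09 in SHR, a log2 difference of -0.25 that passed the size rule, and Eif3a, the largest scaffold, was at 1.82 and 1.52 (log2 difference -0.16). Eif3g was at 0.995 and 1.17 per 10000 and Eif3j, a loosely bound subunit, at 1.20 and 1.07. Eif3d and Eif3l, at 0.785 and 0.806 per 10000 in the Wistar library and 0.781 and 0.794 in SHR, were lower as deposited and higher under both other scalings, and Eif3b, at 1.01 and 0.925 per 10000, was lower under all 3 scalings.

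The eIF4 genes, whose products bind the cap and unwind the leader, summed to 19.5 per 10000 in the Wistar library and 19.8 in SHR. Of 13 past the minimum 7 were higher and 6 lower in SHR, also under both other scalings, against 34.4% and 65.6% of all genes as deposited. The paralogous helicase genes stood in opposite order in the libraries. Eif4a1 was at 3.78 per 10000 in the Wistar library and 3.25 in SHR (log2 difference -0.17), and Eif4a2, the form typical of neurons and other cells that do not divide, at 2.99 and 3.82 (log2 difference 0.27). The ratio of Eif4a2 to Eif4a1, which no scaling of a library can alter, was 0.792 in Wistar and 1.18 in SHR. Eif4a3, which works in the exon junction complex, was at 0.377 and 0.327 per 10000.

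Among the scaffold genes Eif4g2 was the most abundant, at 5.02 per 10000 in the Wistar library and 5.77 in SHR (log2 difference 0.17). Its product lacks the eIF4E binding part of the other scaffolds and serves initiation without the cap. The cap-dependent scaffold genes were lower in SHR. Eif4g3 was at 1.45 per 10000 in the Wistar library and 0.970 in SHR, a log2 difference of -0.31, and Eif4g1 at 0.739 and 0.563 (log2 difference -0.15). The ratio of Eif4g2 to Eif4g1 was 6.79 in Wistar and 10.3 in SHR.

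The cap binding gene Eif4e was at 0.994 per 10000 in the Wistar library and 1.07 in SHR, and its weaker relatives Eif4e2 and Eif4e3 were at 0.353 and 0.284 in Wistar and at 0.362 and 0.190 in SHR. Of the repressors that hold eIF4E, Eif4ebp3 was the most abundant, at 0.732 per 10000 in the Wistar library and 0.526 in SHR, a log2 difference of -0.18. Eif4ebp1 and Eif4ebp2 were at 0.0637 and 0.0693 in Wistar and at 0.0860 and 0.0806 in SHR. Eif4enif1, which encodes the eIF4E transporter, was at 0.306 and 0.323. The helicase partner genes Eif4b and Eif4h were at 0.901 and 1.40 per 10000 in the Wistar library and 0.990 and 1.48 in SHR.

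**Figure D3:**
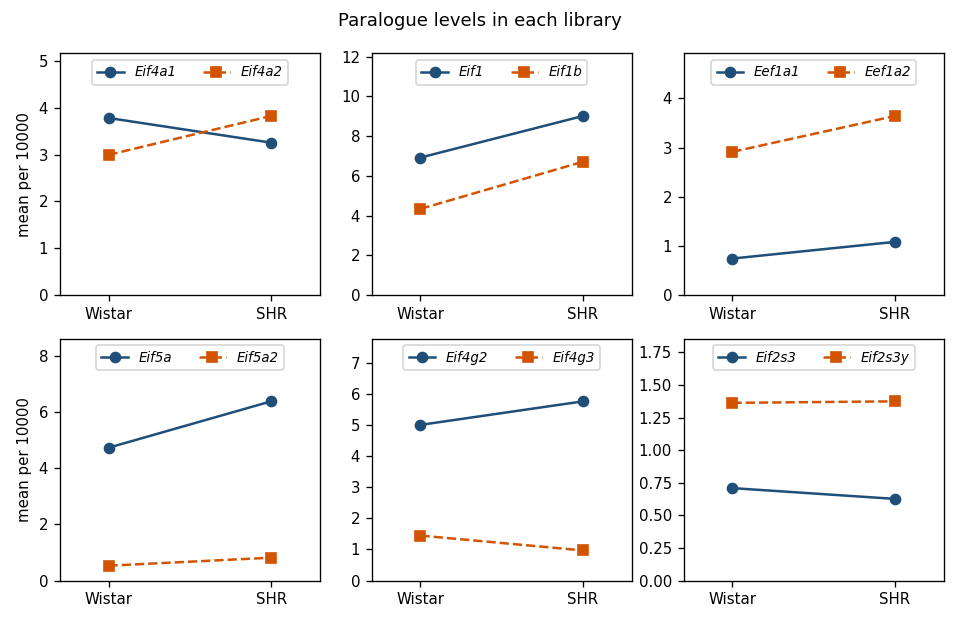
Mean count per 10000 in the Wistar and SHR libraries for 6 pairs of related factor genes, 1 panel per pair and 1 line per gene, with linear axes from 0. The lines of Eif4a1 and Eif4a2 cross, and in the other pairs the same gene is higher in both libraries.

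Of the 10 elongation genes past the minimum 8 were higher in SHR, against 34.4% of all genes as deposited. The count was also 8 on the trimmed total, and it was 9 after centring. The 34.4% is not matched for level. Over all genes the median difference was -0.070 at averages of 0.3 to 1 per 10000, -0.0050 at 1 to 3 and 0.21 at 3 or more. The median of these 10 genes, which lie at mixed levels, was 0.12. Eef1a2, the eEF1A form of mature neurons and muscle, was at 2.91 per 10000 in the Wistar library and 3.64 in SHR (log2 difference 0.25), just under the size rule. Eef1a1, the widespread form, was at 0.745 and 1.08 (log2 difference 0.26), just over it. The RefSeq annotation of GRCr8 names 22 copies and pseudogenes after Eef1a1, which can take reads from it where counting drops reads that map to several places, so its level is uncertain. Eif1 and Eif4a1 have 9 such copies each and Eif5a has 2.

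Of the subunit genes of eEF1B, the complex that reloads eEF1A with GTP, Eef1g and Eef1b2 were higher in SHR and Eef1d was lower. Eef1g was at 3.65 per 10000 in the Wistar library and 4.22 in SHR, and Eef1b2 at 1.87 and 2.22, each a log2 difference of 0.17. Eef1e1, grouped with them by its name, encodes a part of the tRNA synthetase complex and was at 0.637 and 0.930 (log2 difference 0.24). Eef1d, at 0.892 and 0.845, was lower as deposited and higher after centring.

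Eef2, which encodes the translocation factor, was nearly level between the libraries at 5.46 per 10000 in the Wistar library and 5.78 in SHR, a log2 difference of 0.070. Its kinase gene Eef2k was not, at 0.802 and 0.479 per 10000, a change of -40.3% and a log2 difference of -0.29. The lysine methyltransferase genes Eef1akmt1 and Eef1akmt2 were at 0.241 and 0.146 per 10000 in the Wistar library and 0.264 and 0.214 in SHR.

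The signalling arm that controls eIF4E and eEF2 kinase was taken as a list of 12 mTORC1 and MNK genes. Of 10 past the minimum 9 were lower in SHR, 9 on the trimmed total and 8 after centring, against 65.6% of all genes as deposited. Of these 10, 1 passed the size rule upward and 1 downward, against 6.53% and 11.8% of all genes. Rheb, the GTPase that activates mTORC1, was the higher one, at 3.75 per 10000 in the Wistar library and 4.82 in SHR (log2 difference 0.29). Rps6kb2, which encodes an S6 kinase, was the lower one, at 0.695 and 0.343 (log2 difference -0.34). Mtor itself was at 0.696 and 0.452 (log2 difference -0.22), and Tsc2, which encodes an inhibitor of mTORC1, at 0.468 and 0.263 (log2 difference -0.22). The list mixes activators and inhibitors, so its counts give no direction of mTORC1 activity.

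Among 16 further translation factor genes, such as those for poly(A) binding proteins and release factors, 7 were higher and 9 lower in SHR. The shares of all genes were 34.4% and 65.6%. Of the 16 only Paip2, which encodes a repressor of poly(A) binding protein, passed the size rule, at 2.51 per 10000 in the Wistar library and 3.45 in SHR. That 1 of 16 is close to the 6.53% of all genes past it upward. The 9 mitochondrial translation factor genes summed to 1.81 and 1.70 per 10000, and none of the 5 past the minimum passed the size rule, a count that says little beside the 6.53% of all genes past it upward and 11.8% downward.

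Messenger RNAs of many elongation factors and of all ribosomal proteins start with a terminal oligopyrimidine (TOP) tract, a C followed by pyrimidines, through which mTORC1 governs their translation. The 7 measured factor genes listed as TOP mRNAs were Eef1a1, Eef1b2, Eef1d, Eef1g, Eef2, Eif3f and Eif4b. Of these, 6 were higher in SHR as deposited, against 34.4% of all genes, and 7 after centring. Their median difference was 0.17, against -0.017 for the 50 other factor genes past the minimum. Neither comparison is matched for level, and all genes averaging at least 1 per 10000 had a median of 0.038. Cytosolic ribosomal protein genes moved alongside, with 73 of 74 past the minimum higher in SHR and a summed level of 246.1 per 10000 in the Wistar library and 358.4 in SHR. Of the 7 TOP genes 5 had a promoter entry in RefSeq (GRCr8). The 30 bases around their annotated starts, 10 before and 20 after, are shown because the tract sits there, with every C followed by at least 5 bases that are C or T in capitals.
Eef1a1 (chr8:88225050-88225079, minus strand): ttggacgttCTTTTTCgcaacgggtttgcc
Eef1b2 (chr9:72074081-72074110, plus strand): ggccggtcccggCCCTTTTTCTCCCTCagc
Eif3f (chr1:172369052-172369081, plus strand): CCCTTCCgttctagCCTCTCTCTTTCTCgg
Eef1g (chr1:215289805-215289834, plus strand): ctgcggaatcaccatggcggctggggtaag
Eef2 (chr7:9189219-9189248, minus strand): ccgcagccgccgccatcgtcggcgcgcttc

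Such a run was found in 3 of these 5 windows, in 28.1% of the 57 factor genes with an entry, in 19.1% of all genes past the minimum with an entry and in 20.2% of all promoters. The 57 with an entry were taken without the minimum, and they are not the same set as the 57 past it. The longest run in these 5 windows, of 15 bases, was that of Eef1b2. Annotated starts can lie some bases away from the true start, and a missing run says only that these letters are not in the window. Over the factor genes past the minimum, 11 of the 16 with a run were higher in SHR, with a median difference of 0.12, and 17 of the 38 without one, with a median of -0.017. Over all genes past the minimum the medians with and without a run were both -0.05.

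The upstream promoters of the 3 genes with the largest positive and the 3 with the largest negative differences are shown next, since they are the ends of the range. Each line holds the 120 bases before the annotated start from RefSeq (GRCr8), 5′ to 3′ on the gene's strand, with matches to any of 6 motifs on either strand in capitals, and for Eif4g3, which has 2 entries, the first is shown. The motifs were the CCAAT box (CCAAT), the GC box (GGGCGG), the E-box (CACGTG), the CRE (TGACGTCA), the TATA box (TATAAA) and the ETS site (CGGAAG).
Eif1b (chr8:129081038-129081157, plus strand): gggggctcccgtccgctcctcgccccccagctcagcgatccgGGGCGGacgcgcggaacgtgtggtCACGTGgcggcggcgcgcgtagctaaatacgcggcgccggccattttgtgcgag
Eif5a (chr10:55143222-55143341, minus strand): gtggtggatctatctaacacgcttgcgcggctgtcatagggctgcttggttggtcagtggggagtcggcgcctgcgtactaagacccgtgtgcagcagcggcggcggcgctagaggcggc
Eif1 (chr10:85747017-85747136, plus strand): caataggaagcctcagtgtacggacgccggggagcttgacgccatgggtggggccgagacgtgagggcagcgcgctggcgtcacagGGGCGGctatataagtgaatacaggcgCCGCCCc
Eif2ak3 (chr4:104363752-104363871, plus strand): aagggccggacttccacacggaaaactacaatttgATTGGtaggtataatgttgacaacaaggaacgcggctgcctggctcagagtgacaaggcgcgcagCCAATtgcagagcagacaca
Eif4g3 (chr5:155481258-155481377, plus strand): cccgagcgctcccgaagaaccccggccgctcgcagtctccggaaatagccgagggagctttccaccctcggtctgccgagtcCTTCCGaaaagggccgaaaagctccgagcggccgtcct
Eef2k (chr1:184824300-184824419, plus strand): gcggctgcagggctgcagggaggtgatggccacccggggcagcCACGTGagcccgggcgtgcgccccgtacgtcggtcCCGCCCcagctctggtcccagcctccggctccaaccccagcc

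Eif1b and Eef2k each held a GC box and an E-box in these bases, and Eif2ak3 held a pair of CCAAT boxes. The 57 factor genes with an entry were again taken without the minimum. Over the whole 300 bases of each promoter entry, the E-box was found in 11 of these 57 (19.3%), against 10.2% of all genes past the minimum and 6.65% of all promoters. The ETS site was found in 54.4% of the factor genes, against 35.8% and 17.4%. The GC box was found in 70.2%, against 66.9% and 34.9%, and the CCAAT box in 31.6%, against 38.1% and 37.7%. The E-box was present in 3 of the 7 genes past the size rule upward and in 1 of the 4 past it downward. These matches describe letters and are not evidence of binding.

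Difference and gene span moved together among the factor genes, as they did in all genes. Spans were taken from GRCr8 and used only as ranks among the genes past the minimum. Of 40 factor genes with spans below the median 24 were higher in SHR, with a median difference of 0.059, and of 17 above it 5 were higher, with a median of -0.085. Over all genes with a span the median differences below and above the median span were -0.0077 and -0.090. All 7 factor genes past the size rule upward had spans below the median. They were 17.5% of the 40 factor genes there, against 10.7% of all genes there. Of the 4 past the size rule downward, 3 had spans above the median. They were 17.6% of the 17 factor genes there, against 16.2% of all genes there. Eif3c was the one with a span below the median. Whether span has a part in the differences of single factor genes was not tested.

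**Figure D4:**
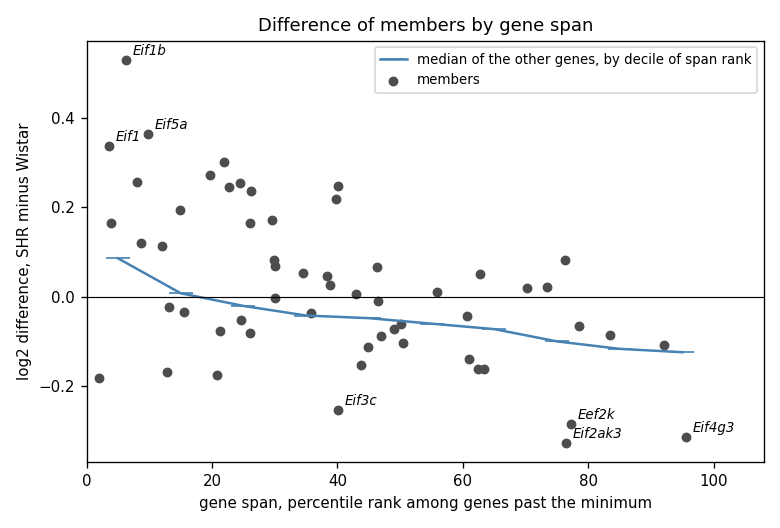
Difference of log2(1 + mean per 10000), SHR minus Wistar, against the percentile rank of gene span for the 57 factor genes (points), with the median of the other genes in each decile of the ranks (blue line). The line goes from 0.086 in the shortest decile to -0.12 in the longest, and Eif1b, Eif5a and Eif1 lie above it at the short end.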

How the data were processed

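Dissociated stellate ganglia gave 1 Wistar and 1 SHR single-cell library. The submitters' processing notes list Cell Ranger 3.0.2, Seurat 3, DESeq2 and the build Rnor_6.0, and the authors selected the sympathetic neuron cluster. Filters on cells, the treatment of doublets and the number of neurons are not given in the sources used here. The deposited values are natural log values, ln(1 + m) with m the average number of counts in 10000 counts of a cell, and converted back they sum to 10000 in each library. A deposited table of the authors' own comparison (fold changes, p-values and shares of cells) was not used.

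Means and differences were computed with Python 3.11.15, NumPy 2.4.6 and pandas 2.3.3. Leaving out 4 lines whose names repeat kept 25395 genes. A minimum average of 0.1 per 10000 left 7621. The pseudocount was 1 and the size rule 0.25 on the log2 scale. The counting of genes past the rule was checked on inputs with known changes, which does not bear on the choice of either setting. Named members have an average of at least 1 per 10000 or pass the size rule, and others complete a complex. The gene lists and members were chosen with earlier results of these data known. Hypusine enzymes, stress response genes, neuron markers, Mtor and Tsc2 were named after their values were seen. RefSeq promoters of GRCr8 matched 57 of 62 members by symbol. Spans matched all 57 members past the minimum and 95.7% of all genes past it. The alternatives were other pseudocounts, minimums, scalings and sizes.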

Additional observations from a re-analysis of the deposited data

How the results depend on the processing

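No paired analysis was possible because there was a single library of either strain, and for the same reason no replicate could be left out. The 7 members higher and 4 lower past the size rule became 14 and 11 with a pseudocount of 0.1 and 0 and 0 with a pseudocount of 10, where the size follows from the pseudocount by construction. The 7 higher became 11 on the trimmed total, without mitochondrial and ribosomal genes, and 11 after centring, which sets the median of all genes to 0 and left 2 lower. A minimum of 1 per 10000 left 2 lower, factors themselves without kinases, repressors and modifying enzymes left 2 lower, and a size rule of 0.5 left 1 higher and 0 lower.

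The median difference of the members, 0.0071, was 0.0013 with a pseudocount of 10, 0.021 on the trimmed total, 0.059 after centring, 0.14 with a minimum of 1 per 10000 and 0.015 for factors themselves. The percent difference of the summed initiation factors, 9.95, was 13.1 on the trimmed total, 7.35 without Eif1, the most abundant, and 15.3 for members of at least 1 per 10000. For elongation factors, 13.4 became 16.7, 16.8 without Eef2 and 14.1. None of the 27 named members changed sign under both other scalings, while small differences of other members did, as given above. For centring, which removes a median of -0.052, this was fixed beforehand, since the smallest decrease of a named member was -0.087 (Eif3j). A pseudocount cannot change a sign. Depth is unknown, so counting error in members of low mean cannot be stated.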
